A study of Mus musculus with 9 samples.

Results

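The genes described here are 10 transcription factor genes of mesenchymal cells, namely Twist1, Twist2, Tcf21, Tcf4, Tcf12, Scx, Bhlhe40 and Bhlhe41 of the basic helix-loop-helix (bHLH) family, and the odd-skipped zinc finger genes Osr1 and Osr2. They were chosen by name, as the rows of the deposited tables whose Ensembl identifier maps to these symbols, and all 10 were found among the 20655 genes listed. RNA-seq had been carried out on stromal cells isolated by flow cytometry from the inguinal and axillary white fat of male and female C57BL/6 mice at 12 days of age, and the labels name no transgene or treatment in any group. The 3 populations were sorted as DPP4+, ICAM1+ and CD142+ cells, with 3 libraries each. The comparisons asked how the populations differ from each other. The values used here are the mean normalised count of a gene over all 9 libraries and a fitted log2 fold change with its standard error (SE) for each pair of populations. Values of single libraries were not analysed here, so the spread between libraries enters only through the SE. Whether libraries are of separate animals is not in the labels, and the p-values reflect differences among these libraries that may be technical. A gene was called different at a Benjamini-Hochberg adjusted p under 0.05 in the authors' DESeq2 Wald test. A level below is the normalised count per library that the mean and the fold changes give for a population, and it has no error of its own.

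Proteins of the bHLH family bind DNA as dimers at a short motif called the E-box (CANNTG). E proteins such as TCF4, TCF12 and TCF3 are broadly expressed and pair with tissue-restricted members such as TWIST1, TWIST2, TCF21 and SCX, while ID proteins lack the DNA-binding region and hold E proteins in inactive pairs. OSR1 and OSR2 are zinc finger factors of embryonic mesoderm and limb connective tissue, and Osr1 marks fibro-adipogenic progenitors of muscle. BHLHE40 and BHLHE41, also called DEC1 and DEC2, are repressors that act on E-boxes of circadian clock genes.

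Of the sort genes, Dpp4 and F3 were highest in the population named for them, while Icam1 was high in both ICAM1+ and CD142+ cells. Dpp4 was lower in ICAM1+ than in DPP4+ cells by a log2 fold change of -5.93, Icam1 was higher by 2.78, and F3, which encodes CD142, was higher in CD142+ than in DPP4+ cells by 2.60. Icam1 did not differ between ICAM1+ and CD142+ cells at this threshold (log2 fold change 0.17, adjusted p = 0.631). The 8 stromal markers were abundant in each population, with summed levels of 568981 normalised counts in DPP4+ cells, 576168 in CD142+ cells and 338915 in ICAM1+ cells. Col1a1 alone made up 508937, 537730 and 307651 of these. Of the 8 markers, 2 were higher and 5 were lower in ICAM1+ than in DPP4+ cells. In CD142+ cells 2 were higher and 4 were lower than in DPP4+ cells. No marker of other cell types was at 0 over all libraries. Fitted levels are never 0, so a low one does not show that a marker was present in a population. Of 8 mural markers 5 were higher and 1 was lower in ICAM1+ than in DPP4+ cells, 5 were higher in CD142+ than in DPP4+ cells, and their summed levels were 2786 normalised counts in DPP4+ cells, 6574 in CD142+ cells and 10545 in ICAM1+ cells. Those of 6 endothelial markers were 2102, 1941 and 3128, and those of 4 Schwann cell markers, all 4 of them higher in ICAM1+ than in DPP4+ cells, were 867, 802 and 2073, in the same order. Immune markers (7 genes) summed to between 227 and 389, skeletal muscle markers (5 genes) to between 42.3 and 70.5, and mesothelial markers (3 genes) to between 3.47 and 11.7. Of 12 genes known to respond to tissue dissociation, all 12 were higher in CD142+ than in DPP4+ cells and 6 were higher in ICAM1+ than in DPP4+ cells, with summed levels of 97435 in DPP4+ cells, 181003 in CD142+ cells and 142413 in ICAM1+ cells. Among them were the immediate early gene Nr4a1, higher in CD142+ cells by 1.66 ± 0.13 on the log2 scale, the heat shock gene Hspa1b (1.46 ± 0.17), a near-identical copy of Hspa1a with which it may share reads, and Zfp36, which encodes an mRNA decay factor and was higher in ICAM1+ cells by 0.91 ± 0.11, all against DPP4+ cells. Nr4a1 and the phosphatase gene Dusp1 were lower in ICAM1+ than in CD142+ cells (-1.14 ± 0.13 and -0.64 ± 0.15). Beside the counts of these lists, 12.4% of all genes tested were higher and 12% were lower in ICAM1+ than in DPP4+ cells. For CD142+ against DPP4+ cells the shares were 10.1% higher and 8.91% lower. The part of these lists in the results below was not tested. In sorted bulk samples, fewer cells that express a gene and less RNA per cell cannot be told apart.

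Most of the factors differed between DPP4+ and ICAM1+ cells. Of the 10 genes, 9 were called in this comparison, against 24.4% of all genes tested. Twist2, Tcf21, Tcf4 and Tcf12 (4 genes) were higher in ICAM1+ cells, where 12.4% of all genes were, and Twist1, Osr1, Osr2, Bhlhe40 and Bhlhe41 (5 genes) were lower, where 12% of all genes were. Between CD142+ and DPP4+ cells, 5 of the 10 were called, against 19% of all genes. Twist2, Tcf21 and Tcf4 were higher in CD142+ cells (10.1% of all genes) and Twist1 and Osr2 were lower (8.91% of all genes). Between ICAM1+ and CD142+ cells, 2 of the 9 genes with an adjusted p were called, Osr1 and Bhlhe40, and both were lower in ICAM1+ cells. In this comparison 9.05% of all genes were called, 3.77% higher and 5.28% lower. The median absolute log2 fold change of the 10 factors was 0.93 for ICAM1+ against DPP4+ cells, 0.46 for CD142+ against DPP4+ cells and 0.38 for ICAM1+ against CD142+ cells, beside 0.43, 0.34 and 0.25 over all genes tested. The signed medians were -0.02, 0.11 and 0.17, beside 0.02, -0.01 and -0.00, since higher and lower members offset each other. The comparisons share populations, so their counts are not independent of each other.

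**Figure D1:**
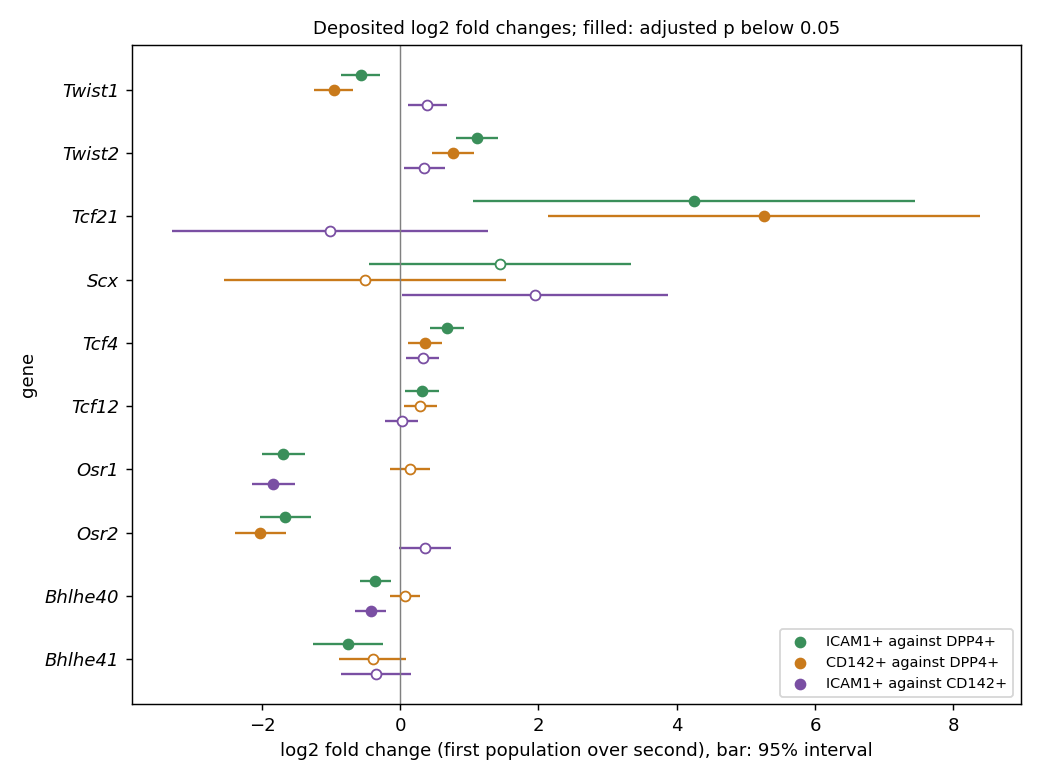
Log2 fold change (horizontal axis) of each of the 10 factors in the 3 comparisons, drawn in 3 colours, with bars for the 95% interval and filled points for genes called at an adjusted p under 0.05. Osr1 lies at -1.69 and -1.84 in the comparisons of ICAM1+ cells and near 0 for CD142+ against DPP4+ cells, Osr2 lies at -1.66 and -2.02 against DPP4+ cells, and Tcf21 and Scx carry the widest intervals.

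Osr1 and Osr2, the odd-skipped factors, showed the largest differences of the factors with a mean above 50 normalised counts, and they separated the populations in different ways. Osr1 (ENSMUSG00000048387.8, chr12:9570116-9581500, plus strand, mm10) stood at 555 normalised counts in DPP4+ cells, 613 in CD142+ cells and 172 in ICAM1+ cells. Osr2 (ENSMUSG00000022330.4, chr15:35296098-35303305, plus strand) stood at 685, 169 and 217 in the same order. Osr1 was thus high in DPP4+ and CD142+ cells and low in ICAM1+ cells, whereas Osr2 was high in DPP4+ cells and low in both of the others.

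The tests bear on each step of these orders. Osr1 was lower in ICAM1+ than in DPP4+ cells (log2 fold change -1.69 ± 0.16 SE, adjusted p = 1.08e-24) and also lower there than in CD142+ cells (-1.84 ± 0.16, adjusted p = 2.59e-28), a 3.57-fold difference with a 95% interval of 2.88 to 4.42. Its levels in CD142+ and DPP4+ cells did not differ at this threshold (0.14 ± 0.15, adjusted p = 0.625), with a 95% interval of -0.15 to 0.43. Osr2 was lower in ICAM1+ than in DPP4+ cells (-1.66 ± 0.19, adjusted p = 2.36e-17). It was also lower in CD142+ than in DPP4+ cells (-2.02 ± 0.19, adjusted p = 3.05e-25), a 4.07-fold difference with a 95% interval of 3.15 to 5.25. The difference of Osr2 between ICAM1+ and CD142+ cells missed the threshold (0.36 ± 0.19, adjusted p = 0.31). DPP4+ and ICAM1+ cells therefore differed in both factors, and CD142+ cells differed from DPP4+ cells in Osr2 and from ICAM1+ cells in Osr1.

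Per kilobase of merged exon, which allows levels of different genes to be set side by side, Osr1 and Osr2 stood at 269 and 189 in DPP4+ cells, at 297 and 46.5 in CD142+ cells and at 83.1 and 59.8 in ICAM1+ cells. Osr1 made up 58.7% of the summed per-kilobase level of the pair in DPP4+ cells and 58.2% in ICAM1+ cells, but 86.4% in CD142+ cells. The summed level itself was 458 in DPP4+ cells, 343 in CD142+ cells and 143 in ICAM1+ cells. DPP4+ and ICAM1+ cells thus held the pair in a like proportion at unlike amounts, while CD142+ cells held mostly Osr1.

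**Figure D2:**
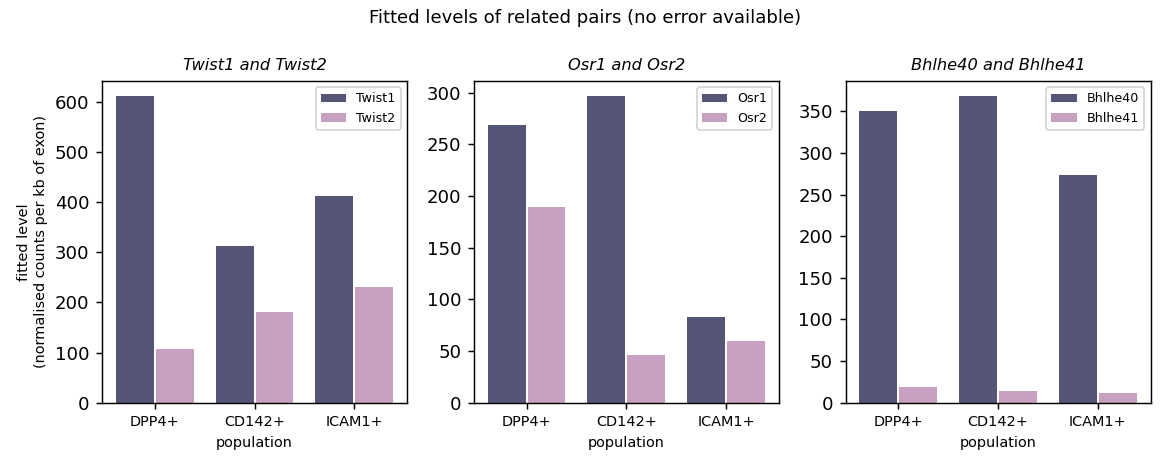
Fitted level per kilobase of merged exon (vertical axis from 0, normalised counts per kb, a scale of its own in each panel) of 3 pairs of related genes in DPP4+, CD142+ and ICAM1+ cells, without error bars because the fitted levels have none. Osr1 stood at 297 beside 46.5 for Osr2 in CD142+ cells, and Twist1 stood at 612 beside 107 for Twist2 in DPP4+ cells. Gene models of the opposite strand cover part of the Twist2, Bhlhe40 and Bhlhe41 exons.

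Twist1 and Twist2, bHLH regulators of mesenchyme of which Twist2 was first known from dermis, moved in opposite directions against DPP4+ cells. Twist1 (ENSMUSG00000035799.6, chr12:33957671-33959829, plus strand) stood at 996 normalised counts in DPP4+ cells, 511 in CD142+ cells and 670.4 in ICAM1+ cells. Twist2 (ENSMUSG00000007805.4, chr1:91801461-91848028, plus strand) stood at 339, 576 and 733. DPP4+ cells were the highest of the populations for Twist1 and the lowest for Twist2.

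Both genes were called in the comparisons with DPP4+ cells. Twist1 was lower in ICAM1+ cells (log2 fold change -0.57 ± 0.14, adjusted p = 0.000488) and in CD142+ cells (-0.96 ± 0.14, adjusted p = 3.46e-10). Twist2 was higher in ICAM1+ cells (1.11 ± 0.16, adjusted p = 1.86e-11) and in CD142+ cells (0.76 ± 0.16, adjusted p = 1.19e-05). Neither was called between ICAM1+ and CD142+ cells, where the fold changes were 0.39 ± 0.14 for Twist1 (adjusted p = 0.0645) and 0.35 ± 0.15 for Twist2 (adjusted p = 0.154). The Twist1 value lies close to the threshold and passed it once fold changes were centred on the median gene (0.42, adjusted p = 0.044). Per kilobase, Twist1 exceeded Twist2 in each population, by a ratio of 5.73 in DPP4+ cells, 1.73 in CD142+ cells and 1.78 in ICAM1+ cells, so that Twist2 made up 14.9%, 36.6% and 35.9% of the pair.

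The Twist2 value carries a limit from a neighbouring gene model. Gm29100, annotated on the opposite strand, covers 46.5% of the Twist2 exon bases, and it stood at 278 normalised counts in DPP4+ cells, 458 in CD142+ cells and 612 in ICAM1+ cells. Its fold changes were 1.14 ± 0.15 for ICAM1+ against DPP4+ cells (adjusted p = 3.51e-12) and 0.72 ± 0.15 for CD142+ against DPP4+ cells (adjusted p = 4.09e-05), close to those of Twist2. Whether the counting used strand is not given in the sources used here, and without strand the reads of both genes cannot be told apart. The per-kilobase ratios and shares of Twist1 and Twist2 carry the same limit.

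The promoter windows of this pair, 250 bases before to 50 after the RefSeq transcript start (GRCm38.p6, sequences from RefSeq), are shown because the genes moved in opposite directions. Twist1 lies at chr12:33957421-33957720 and Twist2 at chr1:91801211-91801510, both on the plus strand and both printed 5′ to 3′ in lower case. E-boxes (CANNTG, which reads alike on both strands) would stand in capitals, and neither window holds one.
Twist1: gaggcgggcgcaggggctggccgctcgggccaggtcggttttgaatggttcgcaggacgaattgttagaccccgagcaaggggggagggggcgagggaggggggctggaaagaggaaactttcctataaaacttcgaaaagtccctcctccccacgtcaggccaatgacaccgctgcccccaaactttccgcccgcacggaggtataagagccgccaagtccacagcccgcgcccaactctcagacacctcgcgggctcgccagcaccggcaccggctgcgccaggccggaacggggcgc
Twist2: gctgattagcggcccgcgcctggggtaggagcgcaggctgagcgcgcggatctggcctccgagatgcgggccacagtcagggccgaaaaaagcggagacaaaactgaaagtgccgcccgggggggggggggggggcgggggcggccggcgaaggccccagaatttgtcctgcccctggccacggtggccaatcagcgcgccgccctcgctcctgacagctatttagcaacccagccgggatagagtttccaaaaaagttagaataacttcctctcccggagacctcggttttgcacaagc
Both windows were rich in G and C, at 66% and 64.7% of bases beside a median of 52.7% over all windows. An E-box occurred in 72.3% of the 32851 windows of the table. The absence of these letters from a window of 300 bases says nothing of binding elsewhere.

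**Figure D3:**
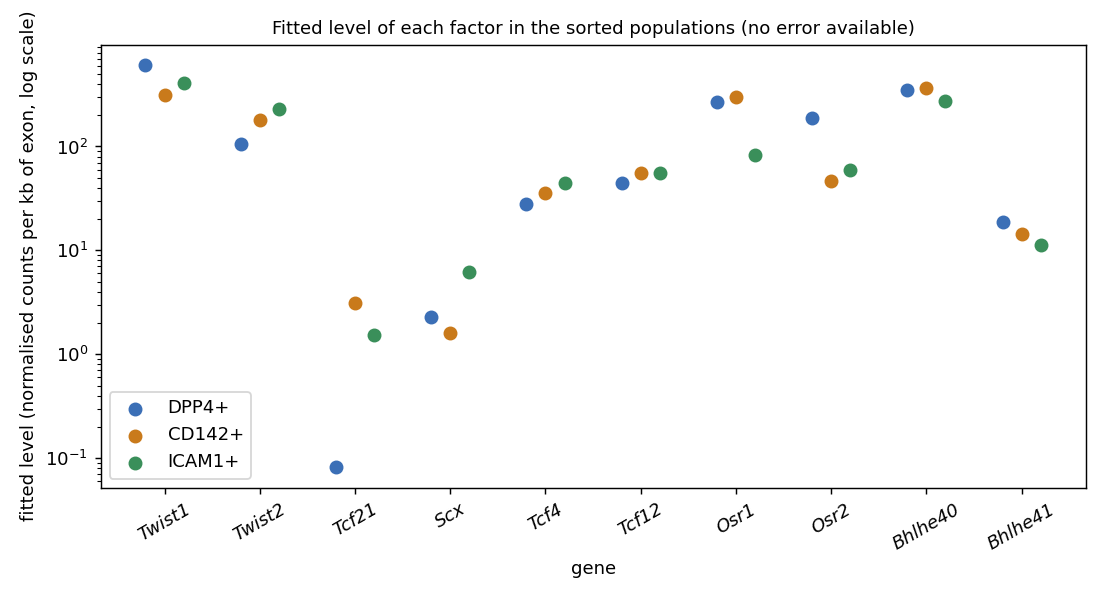
Fitted level per kilobase of merged exon (vertical log axis, normalised counts per kb) of each of the 10 factors in DPP4+, CD142+ and ICAM1+ cells, without error bars because the fitted levels have none. Twist1 reaches 612 and Bhlhe40 368, Tcf21 and Scx lie lowest, with no value above 6.19, and the Tcf4 and Tcf12 values are understated because many transcripts make their merged exons long.

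Bhlhe40 and Bhlhe41 were both lower in ICAM1+ than in DPP4+ cells. Bhlhe40 (ENSMUSG00000030103.11, chr6:108660629-108666925, plus strand), the most counted of the factors, stood at 1651 normalised counts in DPP4+ cells, 1732 in CD142+ cells and 1289 in ICAM1+ cells. It was lower in ICAM1+ than in DPP4+ cells (log2 fold change -0.36 ± 0.11, adjusted p = 0.0104) and also lower there than in CD142+ cells (-0.43 ± 0.11, adjusted p = 0.00396). CD142+ and DPP4+ cells did not differ at this threshold (0.07 ± 0.11, adjusted p = 0.785). Its order of populations was that of Osr1, at a much smaller size.

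Bhlhe41 (ENSMUSG00000030256.11, chr6:145858243-145865558, minus strand) was far less counted, at 127, 96.3 and 75.3 normalised counts in DPP4+, CD142+ and ICAM1+ cells. Only the outer populations differed in it (-0.75 ± 0.26 for ICAM1+ against DPP4+ cells, adjusted p = 0.0164). The steps between neighbours in this order missed the threshold, at -0.40 ± 0.25 for CD142+ against DPP4+ cells (adjusted p = 0.312) and -0.35 ± 0.26 for ICAM1+ against CD142+ cells (adjusted p = 0.532). Per kilobase, Bhlhe40 exceeded Bhlhe41 by a ratio of 18.5 in DPP4+ cells, 25.7 in CD142+ cells and 24.4 in ICAM1+ cells. Gene models of the opposite strand cover 2.51% of the Bhlhe40 exon bases (0610040F04Rik) and 19.0% of those of Bhlhe41 (Gm43909). Neither of these models was called in any comparison. For ICAM1+ and CD142+ against DPP4+ cells, Gm43909 had fold changes of -0.95 ± 0.40 and -0.61 ± 0.39, in the direction of Bhlhe41. Those of 0610040F04Rik were -0.33 ± 0.18 and -0.03 ± 0.17. Without strand, reads of the shared bases cannot be told apart.

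The promoter window of Bhlhe41 is shown because clock factors are known to act on this gene through E-boxes. It lies at chr6:145865371-145865670 on the minus strand (GRCm38.p6, RefSeq) and is printed 5′ to 3′ with its E-boxes (CANNTG) in capitals.
Bhlhe41: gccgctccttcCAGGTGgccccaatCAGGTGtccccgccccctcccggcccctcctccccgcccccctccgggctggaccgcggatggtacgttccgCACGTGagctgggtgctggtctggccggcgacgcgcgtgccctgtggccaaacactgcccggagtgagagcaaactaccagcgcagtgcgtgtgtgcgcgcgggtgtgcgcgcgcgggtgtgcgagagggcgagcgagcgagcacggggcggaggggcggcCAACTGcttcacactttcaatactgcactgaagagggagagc
The window holds 4 E-boxes. One of them is the form CACGTG preferred by these repressors, with its first base at position -153 from the transcript start. That form, which is itself an E-box and reads alike on both strands, occurred in 7.15% of all windows. Among the factors with a window in the table (Twist1, Twist2, Tcf21, Tcf12 and Bhlhe41), 2 of 5 held an E-box in any window and 1 of 5 held CACGTG, beside 75.0% and 8.09% of 27025 genes.

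Clock genes gave the values beside which those of the repressors can be read. Of 17 core clock and clock output genes other than the 2 repressors, 16 had an adjusted p. Among these, 1 was higher and 4 were lower in ICAM1+ than in DPP4+ cells. Between CD142+ and DPP4+ cells 3 were higher and 2 were lower, and between ICAM1+ and CD142+ cells 1 was lower. Over all genes tested, 24.4%, 19% and 9.05% were called in these comparisons. Per2, a repressing clock gene, was higher in ICAM1+ cells (0.86 ± 0.15, adjusted p = 1.53e-07) and in CD142+ cells (0.51 ± 0.15, adjusted p = 0.00458), both against DPP4+ cells. Arntl, which encodes the activator BMAL1, was lower in both (-0.69 ± 0.20, adjusted p = 0.00337, and -0.73 ± 0.20, adjusted p = 0.00222).

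Dbp, an output gene driven by the clock activators, was lower in ICAM1+ than in DPP4+ cells (-1.29 ± 0.25, adjusted p = 3.40e-06) and also lower there than in CD142+ cells (-1.06 ± 0.25, adjusted p = 0.000683). Nr1d1, which encodes REV-ERBα, was lower in ICAM1+ (-0.62 ± 0.14, adjusted p = 0.000142) and in CD142+ cells (-0.44 ± 0.14, adjusted p = 0.0137) than in DPP4+ cells. Npas2, a relative of the clock activator CLOCK, was higher in CD142+ than in DPP4+ cells (1.36 ± 0.34, adjusted p = 0.000706). The list thus held genes of either direction within each comparison with DPP4+ cells. CACGTG was found in the windows of 4 of the 15 clock genes that have one (26.7%), namely Per1, Cry1, Tef and Ciart. Time of day at tissue collection is not given in the sources used here.

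Tcf4 and Tcf12 encode the E proteins E2-2 and HEB and were lowest in DPP4+ cells. Tcf4 (ENSMUSG00000053477.16, chr18:69343356-69689079, plus strand) stood at 761 normalised counts in DPP4+ cells, 975 in CD142+ cells and 1219 in ICAM1+ cells. It was higher in ICAM1+ (log2 fold change 0.68 ± 0.12, adjusted p = 6.39e-07) and in CD142+ cells (0.36 ± 0.12, adjusted p = 0.0253) than in DPP4+ cells. ICAM1+ and CD142+ cells did not differ in it at this threshold (0.32 ± 0.12, adjusted p = 0.0805). Endothelial cells also express Tcf4, and 5 of the 6 endothelial markers were higher in ICAM1+ than in DPP4+ cells, beside 12.4% of all genes tested. None of these markers was called between CD142+ and DPP4+ cells, where 19% of all genes tested were. The part of endothelial cells in the Tcf4 difference was not tested.

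Tcf12 (ENSMUSG00000032228.16, chr9:71842688-72111871, minus strand) varied least of the factors. Its levels were 698 normalised counts in DPP4+ cells, 855 in CD142+ cells and 868 in ICAM1+ cells. The difference between ICAM1+ and DPP4+ cells lay just inside the threshold (0.31 ± 0.12, adjusted p = 0.048) and lay outside it when p-values were adjusted over every gene with a p-value (adjusted p = 0.0554). CD142+ and DPP4+ cells differed by 0.29 ± 0.12 (adjusted p = 0.0847). For ICAM1+ against CD142+ cells the value was 0.02 ± 0.12 with a 95% interval of -0.22 to 0.26 (adjusted p = 0.965). The remaining E protein gene, Tcf3, was called in no comparison (-0.25 ± 0.14 for ICAM1+ and -0.30 ± 0.14 for CD142+ against DPP4+ cells).

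The ID genes, whose products bind E proteins, were mostly higher in both populations than in DPP4+ cells. Of 7 E protein and ID genes (Tcf4 and Tcf12 included), 5 were higher in ICAM1+ than in DPP4+ cells, 5 were higher in CD142+ than in DPP4+ cells, and 2 were lower in ICAM1+ than in CD142+ cells. Without Tcf4 and Tcf12 the counts were 3, 4 and 2 of 5. Over all genes tested, 12.4% and 10.1% were called higher in the first 2 comparisons, and 5.28% lower in the last. Id3, the most counted of the ID genes, stood at 909.5 normalised counts in DPP4+ cells, 2102 in CD142+ cells and 1173 in ICAM1+ cells. It was higher in CD142+ than in DPP4+ cells (1.21 ± 0.12, adjusted p = 2.72e-22), higher in ICAM1+ than in DPP4+ cells (0.37 ± 0.12, adjusted p = 0.0131), but lower there than in CD142+ cells (-0.84 ± 0.12, adjusted p = 1.44e-10).

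Id2 followed with 198, 537 and 267 normalised counts in DPP4+, CD142+ and ICAM1+ cells. Its difference was 1.44 ± 0.18 for CD142+ against DPP4+ cells (adjusted p = 6.08e-14) and -1.01 ± 0.18 for ICAM1+ against CD142+ cells (adjusted p = 7.77e-07). Id1 and Id4 were higher in both CD142+ cells (1.14 ± 0.28 and 1.38 ± 0.17) and ICAM1+ cells (1.05 ± 0.28 and 0.96 ± 0.18) than in DPP4+ cells, and neither was called between ICAM1+ and CD142+ cells. CD142+ cells thus had the highest Id2 and Id3 levels. The Tcf4 level was highest in ICAM1+ cells, but its difference from CD142+ cells missed the threshold. The summed level of the dissociation genes was likewise highest in CD142+ cells, and their part in the ID values was not tested.

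Tcf21 and Scx were near the limit of detection. Tcf21 (ENSMUSG00000045680.8, chr10:22817281-22820174, minus strand), a factor of visceral and cardiac mesenchyme that is also found in white fat progenitors, had a mean of 3.72 normalised counts per library. Its fitted levels were 0.191 in DPP4+ cells, 7.34 in CD142+ cells and 3.63 in ICAM1+ cells. It was called higher in CD142+ (adjusted p = 0.00723) and in ICAM1+ cells (adjusted p = 0.0399) than in DPP4+ cells. With a fitted level under 1 count in DPP4+ cells the fold changes (5.26 ± 1.60 and 4.25 ± 1.63) depend on the fit and give no size, and the 95% interval of the latter ran from 1.05 to 7.44. Between ICAM1+ and CD142+ cells the table holds no adjusted p for it (-1.01 ± 1.16). Tcf21 lies within the span of Gm10824, a gene of the opposite strand, with no shared exon bases in the annotation. Gm10824 is not among the genes listed, and without strand, reads from its introns cannot be told apart from those of Tcf21.

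Scx (ENSMUSG00000034161.7, chr15:76457452-76459458, plus strand), the scleraxis gene of tendon and ligament progenitors, had a mean of 6.73 normalised counts, with fitted levels of 4.57 in DPP4+ cells, 3.20 in CD142+ cells and 12.4 in ICAM1+ cells. It was called in no comparison, with 1.44 ± 0.97 for ICAM1+ against DPP4+ cells (adjusted p = 0.308), -0.51 ± 1.04 for CD142+ against DPP4+ cells (adjusted p = 0.838) and 1.96 ± 0.98 for ICAM1+ against CD142+ cells (adjusted p = 0.261). Scx lies within the span of Bop1, a gene of the opposite strand, with no shared exon bases in the annotation. Bop1 stood at 148 to 158 normalised counts and was called in no comparison, and without strand, reads from its introns cannot be told apart from those of Scx. At this depth a fitted difference larger than that of Osr1 did not pass the test.

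Genes of tendon and its matrix ranged from scarce to abundant. Of 13 such genes, Scx included, 12 had an adjusted p. Among these, 6 were higher in ICAM1+ than in DPP4+ cells, and 5 were higher and 1 was lower in CD142+ than in DPP4+ cells. Between ICAM1+ and CD142+ cells 3 were higher and 1 was lower in ICAM1+ cells. These comparisons called 24.4%, 19% and 9.05% of all genes tested. Fmod, which encodes the collagen-binding fibromodulin, stood at 38.9 normalised counts in DPP4+ cells, 705.5 in CD142+ cells and 293 in ICAM1+ cells, and was higher in CD142+ (4.18 ± 0.25, adjusted p = 6.22e-61) and in ICAM1+ cells (2.91 ± 0.25, adjusted p = 5.93e-29). Tnc, which encodes tenascin C, was highest in ICAM1+ cells at 1788 normalised counts, against 345 in DPP4+ and 480.3 in CD142+ cells (1.90 ± 0.18 for ICAM1+ against CD142+ cells, adjusted p = 7.53e-23). Thbs4, a thrombospondin of tendon and muscle matrix, was lower in CD142+ than in DPP4+ cells (-2.29 ± 0.37, adjusted p = 1.52e-08) and higher in ICAM1+ than in CD142+ cells (2.16 ± 0.37, adjusted p = 3.98e-07). These genes are also expressed by fibroblasts outside tendon, and Egr1 is on both this list and that of the dissociation genes. Egr2, a zinc finger gene that responds to growth signals, differed by 1.95 ± 0.15 between CD142+ and DPP4+ cells, with CD142+ cells higher (adjusted p = 1.51e-35). Mkx and Comp were scarcer than Scx, with means of 1.45 and 5.44 normalised counts. Chad, Tnmd and Kera were also scarce, though above Scx, at means of 8.98, 9.43 and 13.0. Of these scarce genes only Chad was called, higher in ICAM1+ (adjusted p = 0.00495) and in CD142+ cells (adjusted p = 0.0124) than in DPP4+ cells. Its fitted level in DPP4+ cells was 1.11.

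Other tissue-restricted bHLH genes of mesoderm were mostly at low levels. Of 21 on the list, 13 were measured, and 11 of these had an adjusted p in each comparison with DPP4+ cells. Of the 11, 3 were called higher in ICAM1+ cells and 1 in CD142+ cells, beside 12.4% and 10.1% of all genes tested. None of the 6 with an adjusted p was called between ICAM1+ and CD142+ cells. Msc, which encodes the repressor musculin, was the best counted of the called genes, with 17.1 normalised counts in DPP4+ cells, 60.4 in CD142+ cells and 70.1 in ICAM1+ cells. It was higher in ICAM1+ (2.04 ± 0.40, adjusted p = 5.80e-06) and in CD142+ cells (1.82 ± 0.40, adjusted p = 7.65e-05). The others called in ICAM1+ cells were the muscle factors Myod1 and Myog, at means of 4.4 and 6.0 normalised counts. These 3 genes were named after their values were seen, because the count was small. Skeletal muscle markers summed to 47.6 in DPP4+ and 70.5 in ICAM1+ cells, and these sums include Myod1 itself, at 1.05 and 10.6. The part of muscle RNA in the Myod1 and Myog values was not tested.

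Genes that act beside the TWIST proteins in mesenchymal transitions included members of either direction. Of 6 such genes measured, 3 were higher and 1 was lower in ICAM1+ than in DPP4+ cells, 3 were higher in CD142+ than in DPP4+ cells, and 1 was lower in ICAM1+ than in CD142+ cells. The shares of all genes called in these comparisons were 24.4%, 19% and 9.05%. Snai2, a zinc finger repressor known as Slug, was higher in CD142+ (1.24 ± 0.28, adjusted p = 0.000138) and in ICAM1+ cells (0.98 ± 0.29, adjusted p = 0.00384) than in DPP4+ cells, as were Snai1 (0.87 ± 0.19 and 0.53 ± 0.20) and Zeb2 (0.50 ± 0.13 and 0.35 ± 0.13). Prrx1, a homeobox factor of limb mesenchyme, was lower in ICAM1+ than in DPP4+ cells (-0.49 ± 0.11, adjusted p = 0.000108) and also lower there than in CD142+ cells (-0.54 ± 0.11, adjusted p = 5.34e-05). The Prrx1 levels of 2250 in DPP4+ cells, 2324 in CD142+ cells and 1601 in ICAM1+ cells had the order seen for Osr1 and Bhlhe40.

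**Figure D4:**
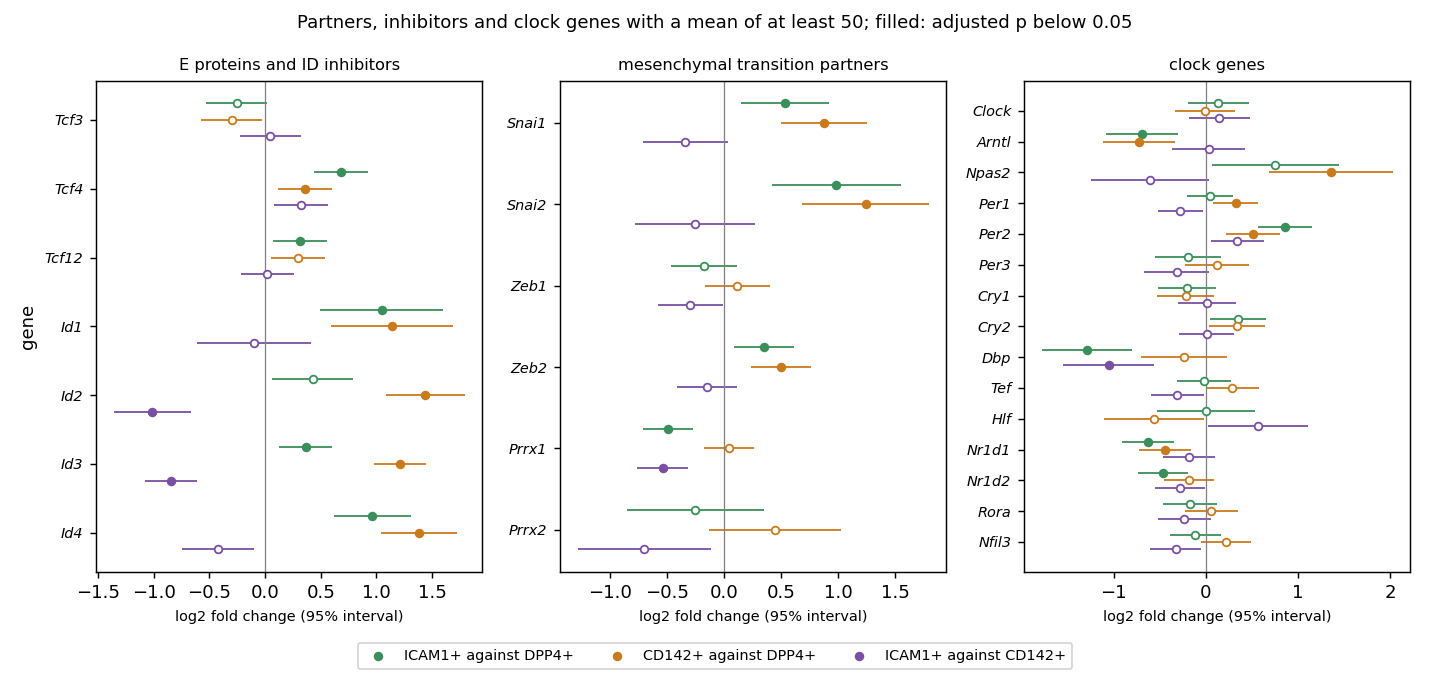
Log2 fold change with its 95% interval (horizontal axis, a scale of its own in each panel) in the 3 comparisons for E protein and ID genes, mesenchymal transition partners and clock genes with a mean of at least 50 normalised counts, with filled points for adjusted p under 0.05. Id2 and Id3 are the ID genes with filled points below 0 for ICAM1+ against CD142+ cells (-1.01 and -0.84), and the clock genes have filled points on both sides of 0.

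The 8 factors with a mean of at least 50 normalised counts lay in different parts of the plane of the fold changes against DPP4+ cells. Twist2, Tcf4 and Tcf12 lay with both values above 0, Osr2, Twist1 and Bhlhe41 with both below 0, and Osr1 and Bhlhe40 were near 0 for CD142+ cells and below 0 for ICAM1+ cells. Both axes share the DPP4+ libraries, so the position of a single gene carries their error along both.

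**Figure D5:**
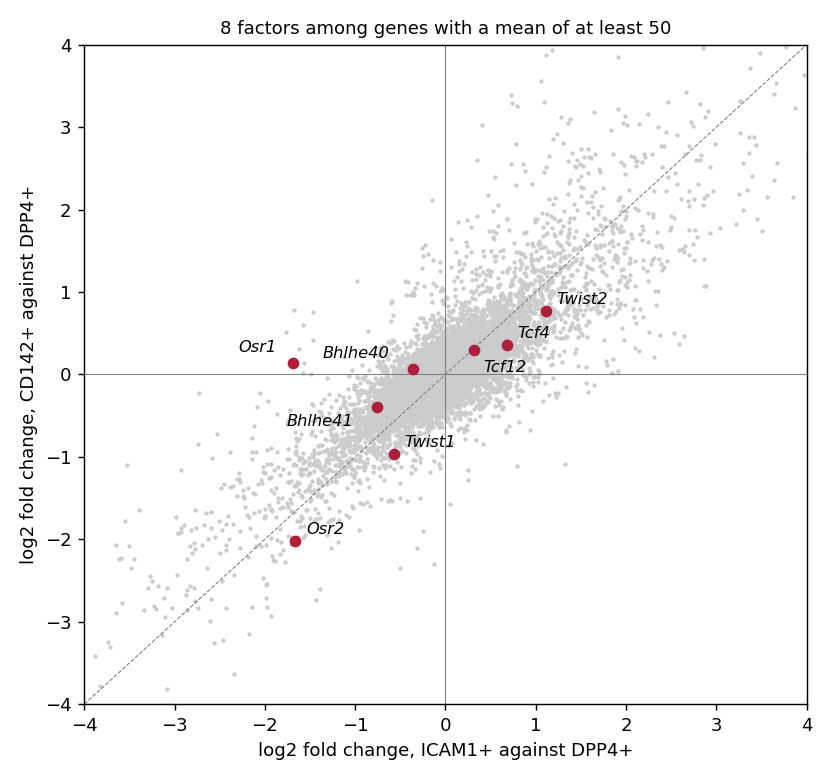
Log2 fold change of ICAM1+ against DPP4+ cells (horizontal axis) and of CD142+ against DPP4+ cells (vertical axis) for genes with a mean of at least 50 normalised counts (grey, those beyond the frame not shown) and the 8 factors above that mean (red, labelled), with a dashed line where both are equal. Osr2 lies at -1.66 and -2.02, Osr1 at -1.69 and 0.14, and Twist2 at 1.11 and 0.76.

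The genes whose pattern came nearest to that of the most variable factors were found by their distance in this plane, among 7951 genes whose mean reached 100 normalised counts and over 3 populations only. Nearest to Osr2 were Cmah (distance 0.0574 log2 units), Plekho1 (0.0893) and Itga2 (0.102), of which Itga2 encodes the collagen-binding integrin α2 and Cmah the enzyme that makes N-glycolylneuraminic acid. Nearest to Osr1 were Adcy7 (0.132), an adenylyl cyclase gene, Cd200 (0.17), a gene of a surface glycoprotein that restrains myeloid cells, and Sfrp4 (0.184), which encodes a secreted WNT antagonist. Nearest to Twist2 were Csrp1 (0.0155), Rgs3 (0.0364) and Angptl4 (0.0376), the last encoding an inhibitor of lipoprotein lipase. The nearest gene to Osr1 was thus farther from it than the nearest to Osr2 or Twist2 was.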

How the data were processed

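RNA was selected with oligo(dT) beads and primed with random hexamers, per the labels, which describe no step that marks strand. The files hold 3 pairwise result tables, 1 for each pair of the DPP4+, ICAM1+ and CD142+ populations (3 libraries each). Per the labels, the authors aligned reads with STAR 2.5.2a to mm10 and ran DESeq2 in R 3.5.1. The deposited mean is a normalised count over all 9 libraries (a signal, not raw counts). The deposited effect is a log2 fold change with its SE, and each deposited p-value is from the Wald test, with a Benjamini-Hochberg adjusted p. These are the authors' own comparisons, and the tables used here give no values of single libraries. The Wald statistic was not used. Of the 20659 rows of each file 4 were alignment summaries, which held 59.6% of the summed means and were left out. They entered the authors' fit. The depth of single libraries is unknown, so no counting interval was computed.

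Symbols came from GENCODE M21 (20618 genes matched). Levels were computed from the mean and the fold changes as 3 times the mean shared in proportion to the folds, which assumes equal library numbers. Fold changes of the 3 tables were additive within 0.01 for 20612 genes. Intervals of 95% are ±1.96 SE. Per-kilobase levels divide by merged exon length. Per-kilobase levels of genes with many transcripts are understated, as for Tcf4 and Tcf12. The adjusted p was recomputed for the alternatives and differed from the deposited one by at most 0.00018. The test of fold changes beyond 1 was run on simulated data. No true fold change was set near 1 there, so its error rate at that limit was not assessed.

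The named genes were all 10 members. From each related list the rule named up to 2 called genes per direction and comparison, ranked by size of change where the mean was 50 or more. Tcf3, Zeb2, Msc, Myod1, Myog, Mkx, Comp, Chad, Tnmd and Kera fall outside it and were added after their values were seen. The members and lists were chosen with earlier results of these data known, and some lists were adapted from an earlier analysis of these data. Promoter windows are from RefSeq. Python, pandas, numpy, scipy and matplotlib were used. The alternatives were another threshold, another adjustment set, a filter on the mean, re-centring and a minimum fold change.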

Additional observations from a re-analysis of the deposited data

Results flagged for a closer look

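Osr1 and Bhlhe40 were flagged because their effects against DPP4+ cells differed between ICAM1+ and CD142+ cells by a test of the difference itself, which here is the ICAM1+ against CD142+ comparison since both effects share the DPP4+ libraries. The Osr1 effect was lower in ICAM1+ than in CD142+ cells by a log2 difference of -1.84 ± 0.16 (adjusted p = 2.59e-28), with 555 normalised counts in DPP4+ cells, 613 in CD142+ cells and 172 in ICAM1+ cells. The Bhlhe40 effect was lower by -0.43 ± 0.11 (adjusted p = 0.00396). No library could be examined as standing apart, because only values over 3 libraries per population were used.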

How the results depend on the processing

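Only re-centring could turn a direction, since every other alternative keeps the deposited fold changes. It moved fold changes little and turned none of the 10 factors. Counts of called factors are given first for ICAM1+ and then for CD142+ cells, each set against DPP4+ cells, and last for ICAM1+ with CD142+ cells as the base, with the share of all genes called the same way in parentheses. At the threshold of 0.05 they were 9, 5 and 2 (24.4%, 19% and 9.05%). At an adjusted p under 0.01 they were 5, 4 and 2 (18.2%, 14.1% and 5.99%), with Tcf21, Tcf12, Bhlhe40 and Bhlhe41 lost from the first and Tcf4 from the second. With a log2 fold change of at least 1 in size asked for as well, they were 4, 2 and 1 (12%, 9.86% and 3.5%), and in a test against a log2 fold change of 1 they were 2, 1 and 1 (3.89%, 3.2% and 0.416%). Adjusting over every gene gave 8, 5 and 2 (20.4%, 15.5% and 6.41%). Re-centring subtracted the fold change of the median gene (-0.07, -0.05 and -0.02), which raised all values slightly. It gave 9, 6 and 3 (24.4%, 18.9% and 9.08%), adding Tcf12 (0.35, adjusted p = 0.0311) to the second and Twist1 to the third. A mean of at least 10 left out Tcf21 and Scx and gave 8, 4 and 2 of the other factors (30.7%, 23.4% and 10.2%). Depth limits Tcf21 and Scx, at means of 3.72 and 6.73 normalised counts. Leaving out single libraries, other size factors and an edgeR fit were not run, since they need values of single libraries. No paired analysis was possible because the tables used here carry no values of single libraries.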
